A study of Mus musculus with 4 samples.

Results

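The E protein and Id genes are 6 of the 31053 genes in the expression tables, chosen by name: the Id inhibitors Id1, Id2 and Id3, and the E proteins Tcf3 (E2A), Tcf12 (HEB) and Tcf4 (E2-2). They were read in 4227 turnover and 4414 autonomy barcodes with 1000 or more UMIs (unique molecular identifiers, 1 for each captured RNA molecule), and together they gave 0.0562% of turnover and 0.0980% of autonomy UMIs. All 6 passed the minimum of 200 UMIs over both libraries that 8998 genes passed.

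E proteins are basic helix-loop-helix transcription factors. They bind DNA in pairs at a short motif called the E-box and, in early thymocytes, they drive T-lineage genes, the recombination of the T cell receptor loci and a pause in proliferation. Id proteins have the helix-loop-helix that forms pairs but no DNA-binding region, so an E protein paired with an Id protein leaves DNA. Signals through the pre-T cell receptor and the T cell receptor induce Id3 through ERK and the Egr factors, and BMP signals induce Id1 in many tissues.

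Both conditions used wild-type mouse thymi transplanted 28 days earlier, from which thymocytes labelled DN3-DN4, ISP and double positive (DP) were sorted. In turnover, incoming progenitors replace the thymocytes of the graft. In autonomy, the thymocytes of the graft maintain themselves. The hosts, the number of thymi and whether they were pooled are not given in the sources used here, so each condition was 1 expression library with its V(D)J library, a separate readout of the rearranged receptor chains of the same barcodes. With 1 library per condition there was no test between conditions, condition and library cannot be told apart, and every interval below is a 95% interval that covers counting error only.

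The libraries held 20057936 turnover and 16260384 autonomy UMIs after the filter, with medians of 2112 and 2430.5 UMIs per barcode, and shared 29 barcode sequences. They differed in 2 further ways. A productive TRB chain was also found in another barcode for 4.40% of turnover and 85.4% of autonomy barcodes with such a chain. An Xist UMI was found in 0 turnover and 1806 autonomy barcodes, while 2459 turnover and 934 autonomy barcodes had a Y-linked UMI and no Xist UMI. Stages were assigned from marker genes, none of them a member: Il2ra with low coreceptors (134 turnover and 38 autonomy barcodes), cycling from S and G2/M genes (634 and 240), mature single positive markers (14 and 119), post-selection markers such as Cd69 and Cd5 (408 and 413), and resting DP from Rag1, Rag2, Cd4 and Cd8 (2806 and 3360). Another 220 and 137 barcodes had no stage, and 11 and 107 carried macrophage, dendritic or B cell markers. The mature barcodes of autonomy, with 768 Klf2 and 26 Rag1 UMIs, go beyond the labelled sort. The 14 of turnover had 28 Ccr7 UMIs but also 18 Rag1 and only 1 Klf2 UMI, so the name is less sure for them. Median UMIs were 15431 and 14566 in cycling barcodes but 1880 and 2296.5 in resting DP. Cycling barcodes held 54.7% of turnover and 23.9% of autonomy UMIs, and resting DP barcodes held 28.8% and 50.8%. Sums over all barcodes therefore weigh cycling barcodes most in turnover but resting DP most in autonomy. In every thymocyte stage the macrophage and granulocyte list summed to at most 0.303 UMIs per 10000, against 87.7 and 86.1 in the barcodes set aside.

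Summed over all barcodes, Id1 and Tcf3 stood highest in autonomy relative to turnover. Levels are given as CPM, the UMIs of a gene per 1000000 UMIs of its group. Id1 was at 1.10 CPM in turnover and 21.3 CPM in autonomy, a ratio of 19.5 (12.6 to 31.5), or 10.5 (4.59 to 29.7) with every barcode thinned to 1000 UMIs. Tcf3 was at 59.2 and 231.5 CPM, a ratio of 3.91 (3.66 to 4.18). Tcf12 followed with 161.5 and 258.4 CPM, a ratio of 1.60 (1.53 to 1.68). Tcf4 alone was lower in autonomy, with 32.8 and 23.7 CPM and a ratio of 0.722 (0.635 to 0.820). At least 2-fold higher in autonomy were 2 of the 6 genes, Id1 and Tcf3, beside 13.6% of the 8998 genes tested. None of the 6 was at least 2-fold lower, beside 2.3% of genes. Id1 ranked 28th and Tcf3 178th of 8998 by this ratio. The scale matters for this background: with TMM factors, which shift every log2 ratio by -0.29, 620 genes were 2-fold higher and 437 lower in place of 1222 and 207, and the share of calls that were higher went from 85.5% to 58.7%. The median log2 ratio was 0.78 over the 6 genes and 0.28 over all genes tested.

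**Figure D1:**
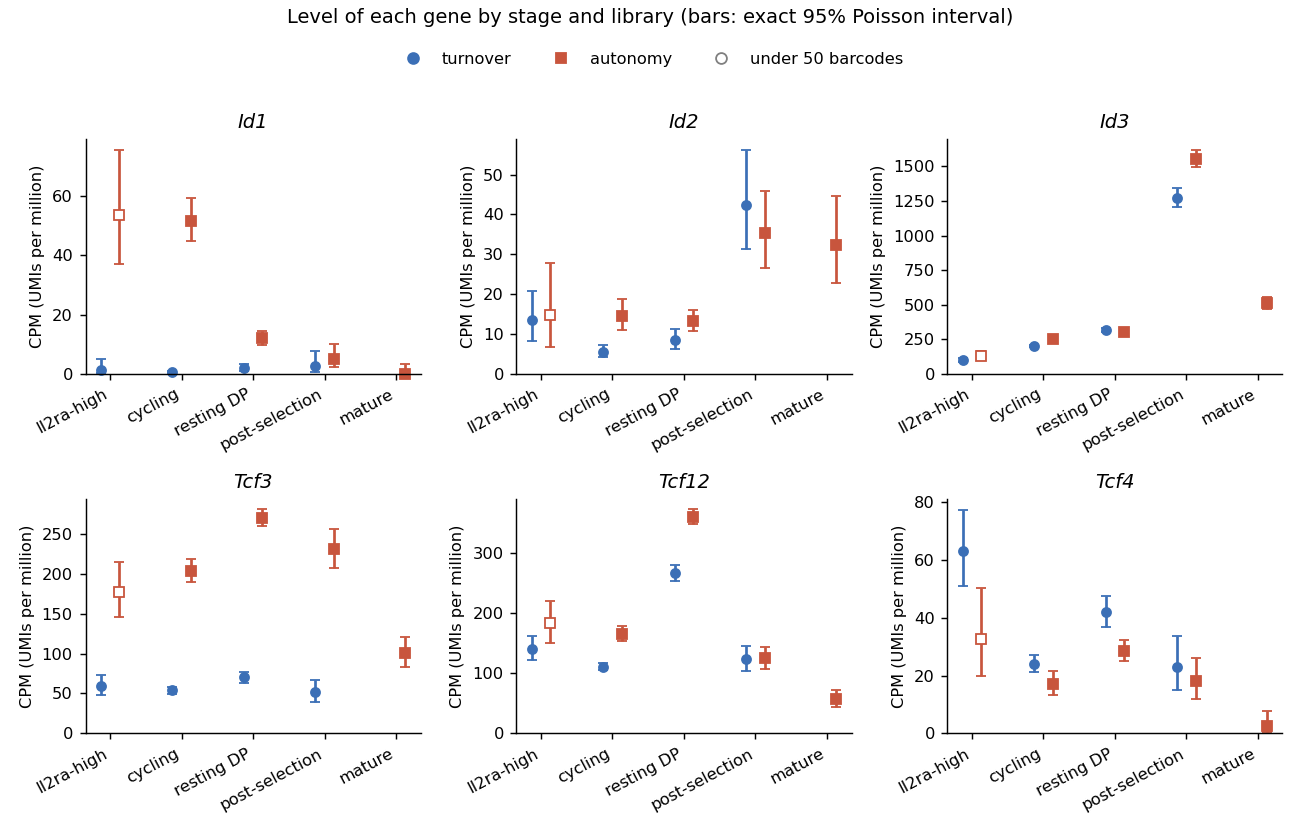
CPM of each gene (vertical axis, linear from 0) in the stages (horizontal axis) of the turnover (circles) and autonomy (squares) libraries, with exact 95% Poisson intervals as bars; open symbols are groups under 50 barcodes, and the 14 turnover mature barcodes are not drawn. Tcf3 is higher in autonomy in every stage drawn for both libraries, Id3 peaks after selection, Tcf12 in resting DP, and Id1 in the Il2ra-high and cycling barcodes of autonomy.

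Id1, an Id inhibitor that is sparse in most thymocytes, came mostly from the autonomy library, where its level was highest in the Il2ra-high and cycling barcodes. In cycling barcodes 5 UMIs from 634 turnover barcodes made 0.456 CPM, and 201 UMIs from 240 autonomy barcodes made 51.7 CPM. The ratio was 113.5 (47.8 to 353), or 63.3 (24.7 to 207) among barcodes with a Y-linked and no Xist UMI and 255 (69.7 to 2121) with thresholds 1.5 times as strict. Among the 7839 genes with 100 or more UMIs in cycling barcodes, Id1 ranked 4th. The Il2ra-high barcodes of autonomy were few, but 33 UMIs from 38 barcodes put them at 53.8 CPM, beside 2 UMIs and 1.34 CPM in 134 turnover barcodes. The 33 UMIs lay in 11 of the 38 barcodes, with 9 in 1 barcode. The Il2ra gate came before the cycling gate, and these 38 barcodes summed to 70.9 S phase and 91.9 G2/M UMIs per 10000. Some of them therefore also passed the cycling threshold. In resting DP the Id1 level was 1.90 CPM in turnover (11 UMIs) and 12 CPM in autonomy (99 UMIs), a ratio of 6.29 (3.37 to 13). Post-selection barcodes had 3 and 8 UMIs, and their ratio of 1.93 (0.464 to 11.3) could not separate the libraries at this depth. Mature autonomy barcodes had no Id1 UMI in 1142128 UMIs, where 3 counts would be 2.63 CPM.

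The share of barcodes with an Id1 UMI followed the same order. Among cycling barcodes 5 of 634 in turnover (0.789%) and 75 of 240 in autonomy (31.2%, 25.4% to 37.5%) had one. After thinning of every barcode to 1000 UMIs, these were 0 of 634, where 3 counts would be 0.473% and the exact upper limit is 0.580%, and 15 of 240 (6.25%, 3.54% to 10.1%). In autonomy resting DP the thinned share was 1.10%, and in mature barcodes it was 0 of 119, where 3 counts would be 2.52% and the exact upper limit is 3.05%, at a median of 9427 UMIs before thinning. The 10 barcodes with the most Id1 held 36.3% of the 201 UMIs of cycling autonomy barcodes, and the highest held 13. Such clustering makes the intervals for Id1 too narrow for cells as the unit.

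Id2, the Id inhibitor best known for innate lymphoid cells, was low before selection and higher after it. It stood at 8.48 CPM in turnover and 13.2 CPM in autonomy resting DP (49 and 109 UMIs). In post-selection barcodes it was at 42.5 and 35.3 CPM (48 and 55 UMIs), which is 5.01 (3.29 to 7.61) and 2.67 (1.90 to 3.73) times the resting DP level of the same library. Mature autonomy barcodes were close to that, at 32.4 CPM. The post-selection Id2 UMIs lay in 20 of 408 turnover and 34 of 413 autonomy barcodes. Between libraries, Id2 was higher in autonomy in cycling barcodes (5.56 and 14.4 CPM, ratio 2.59, 1.77 to 3.79) and in resting DP (ratio 1.56, 1.10 to 2.23). In post-selection barcodes the ratio was 0.831, with an interval of 0.554 to 1.25 that includes no difference. One turnover barcode held 12 of the 61 Id2 UMIs of cycling turnover barcodes. Markers of innate lymphoid and NKT cells summed to 0.902 and 1.23 UMIs per 10000 in post-selection barcodes and to 13.6 in mature autonomy barcodes, and their part in the Id2 level was not tested.

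Id3, the Id inhibitor that T cell receptor signals induce, differed widely between stages in both libraries. It was at 317.5 CPM in turnover and 303.5 CPM in autonomy resting DP and at 1275 and 1557 CPM in post-selection barcodes. The step was 4.01-fold (3.74 to 4.30) in turnover and 5.13-fold (4.85 to 5.43) in autonomy. Cycling barcodes had 201.7 and 251.1 CPM and Il2ra-high barcodes 99.5 and 132.0 CPM. The last value came from 81 UMIs in 13 of 38 barcodes, with 25 UMIs in 1 barcode. Those 38 barcodes also had Cd69 at 154.8 and Cd5 at 97.8 CPM, against 12.1 and 3.36 in turnover, with Egr1 alike at 8.15 and 8.07. Mature autonomy barcodes had Id3 at 511.3 CPM, 0.329 (0.300 to 0.360) of the post-selection level. Thinned to 1000 UMIs, 680 of 2806 turnover and 805 of 3360 autonomy resting DP barcodes had an Id3 UMI (24.2% and 24%), and 213 of 408 and 248 of 413 post-selection barcodes did.

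Within stages the Id3 ratio of autonomy to turnover was nearer 1 than over all barcodes. The ratio was 0.956 (0.900 to 1.02) in resting DP, 1.22 (1.14 to 1.30) in post-selection and 1.25 (1.15 to 1.34) in cycling barcodes. The cycling value turned to 0.869 (0.623 to 1.20) when each barcode was thinned to 1000 UMIs and so counted alike. Over all barcodes the ratio was 1.43 (1.38 to 1.48), above all 3 of these, and 1.06 (0.991 to 1.13) after thinning. The sums weigh the stages differently, since cycling barcodes made up 634 of 4227 in turnover but 240 of 4414 in autonomy.

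For post-selection over resting DP, 3.29% of 6838 genes in turnover and 4.63% of 7990 in autonomy were at least 2-fold higher, and 6.79% and 9.41% were at least 2-fold lower. Id3 ranked 65th and 72nd from the top in these. Of the 4 member genes with enough UMIs in turnover, Id3 was 2-fold higher and Tcf12 2-fold lower. Of all 6 in autonomy, Id2 and Id3 were higher, and Id1 and Tcf12 lower. The stage was defined by markers that include Cd5, Egr1 and Egr2, so these folds describe the gate and its cells.

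The RefSeq windows of the 250 bases before the start were found for Id2 and Id3 and are shown because both genes were higher after selection. Capitals mark E-boxes, CANNTG, which read alike on both strands.
Id2: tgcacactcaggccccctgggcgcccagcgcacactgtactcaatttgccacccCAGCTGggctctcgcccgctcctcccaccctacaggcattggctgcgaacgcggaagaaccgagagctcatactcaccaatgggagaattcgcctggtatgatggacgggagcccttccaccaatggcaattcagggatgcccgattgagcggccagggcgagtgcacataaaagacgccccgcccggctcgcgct
Id3: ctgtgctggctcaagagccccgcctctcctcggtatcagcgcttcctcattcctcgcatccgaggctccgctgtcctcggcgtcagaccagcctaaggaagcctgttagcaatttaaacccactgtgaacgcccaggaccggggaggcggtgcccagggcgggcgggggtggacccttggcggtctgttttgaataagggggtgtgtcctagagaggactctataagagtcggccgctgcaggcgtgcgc
The Id2 window is chr12:25096093-25096342 on the minus strand and the Id3 window chr4:136143572-136143821 on the plus strand, both in GRCm38.p6, the assembly that mm10 names. The Id2 window held 1 E-box, CAGCTG, 196 to 191 bases before the start, and the Id3 window held none. An E-box is common, with a match in 66.2% of 32851 windows of this length. The Egr motif GCGNGGGCG, searched on both strands, was in 4.70% of windows and in neither of these.

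Tcf3, which encodes the E2A proteins E12 and E47, was about 4 times higher in autonomy in each stage compared. In cycling barcodes it was at 54.0 CPM in turnover (593 UMIs) and 203.3 CPM in autonomy (790 UMIs), a ratio of 3.76 (3.38 to 4.19). In resting DP it was at 70.3 CPM (406 UMIs) and 270.2 CPM (2233 UMIs), a ratio of 3.85 (3.46 to 4.29). In post-selection barcodes it was at 52.2 CPM (59 UMIs) and 230.9 CPM (360 UMIs), a ratio of 4.42 (3.35 to 5.93). Barcodes with no stage gave 3.47 (2.38 to 5.15). Within a library the Tcf3 level after selection was 0.743 (0.555 to 0.978) of the resting DP level in post-selection barcodes of turnover and 0.854 (0.762 to 0.956) in those of autonomy. Mature autonomy barcodes were lower, at 100.7 CPM, 0.436 (0.350 to 0.539) of the post-selection level. Thinned to 1000 UMIs, 6.70% (5.80% to 7.69%) of turnover and 22.7% (21.3% to 24.2%) of autonomy resting DP barcodes had a Tcf3 UMI, beside 13.5% and 46.9% before thinning.

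The Tcf3 difference was as large among barcodes with a Y-linked UMI and no Xist UMI, where the ratio was 3.86 (3.28 to 4.52) in cycling and 3.58 (3.06 to 4.20) in resting DP barcodes. Within autonomy, barcodes with an Xist UMI and those with a Y-linked UMI and no Xist UMI had a Tcf3 ratio of 0.980 (0.835 to 1.15) in cycling and 1.004 (0.896 to 1.13) in resting DP barcodes, and both intervals include 1. With 1 barcode per TRB chain the ratio over all barcodes was 3.48.

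The other E proteins did not follow Tcf3. Tcf12, which pairs with E2A in thymocytes, was highest in resting DP, at 265.8 CPM in turnover and 359.9 CPM in autonomy. It was 0.463 (0.386 to 0.551) and 0.346 (0.297 to 0.400) of that in post-selection barcodes, at 122.9 and 124.4 CPM, and 56.9 CPM in mature autonomy barcodes. The ratio of autonomy to turnover was 1.35 (1.27 to 1.44) in resting DP, 1.49 (1.35 to 1.64) in cycling and 1.01 (0.810 to 1.27) in post-selection barcodes. Tcf4, best known for plasmacytoid dendritic cells, was lower in autonomy in cycling barcodes (24.1 and 17.0 CPM, ratio 0.703, 0.529 to 0.924) and in resting DP (42.0 and 28.6 CPM, ratio 0.679, 0.565 to 0.816). Its post-selection ratio of 0.781 had an interval of 0.441 to 1.39. Of the thymocyte stages, Il2ra-high turnover barcodes had the most, 63.2 CPM, and mature autonomy barcodes had 3 UMIs. One autonomy barcode set aside for its other-lineage markers held 12 Tcf4 UMIs.

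**Figure D2:**
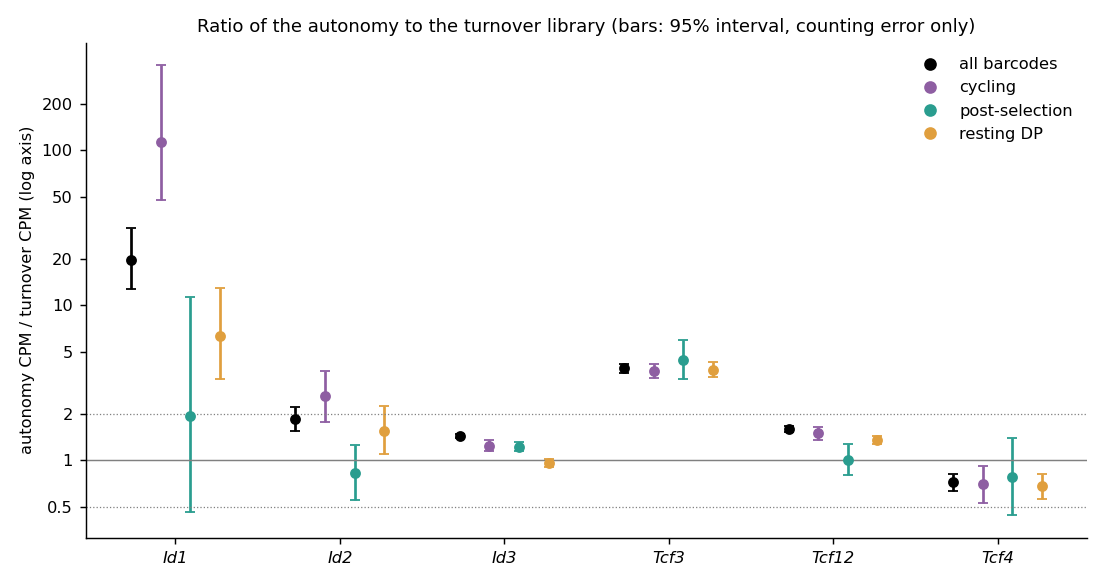
Autonomy CPM divided by turnover CPM (vertical log axis) for the 6 genes over all barcodes and in 3 stages, with 95% intervals for counting error as bars and dotted lines at 2-fold. Tcf3 lies between 3.76 and 4.42 in all 4 sets, Id1 spans 1.93 to 113.5, and Tcf4 lies below 1 throughout.

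The members past 2-fold were then counted by stage. In cycling barcodes Id1, Id2 and Tcf3 were at least 2-fold higher, 3 of 6 beside 7.39% of 7839 genes, and none was 2-fold lower beside 0.791%. In resting DP Id1 and Tcf3 were, 2 of 6 beside 8.88% of 8457 genes, with none lower beside 0.958%. In post-selection barcodes 4 genes had enough UMIs and only Tcf3 was 2-fold higher, beside 6.48% of 4430 genes, with none lower beside 0.519%. Tcf3 ranked 67th in cycling, 103rd in resting DP and 18th in post-selection barcodes.

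Summed, the 3 Id genes gave fewer UMIs per E protein UMI in autonomy in cycling, resting DP and post-selection barcodes. In Il2ra-high barcodes, only 38 in autonomy, the quotient was 0.434 (0.360 to 0.521) in turnover and 0.510 (0.407 to 0.637) in autonomy. The quotient was 1.10 (1.03 to 1.17) in turnover and 0.823 (0.762 to 0.887) in autonomy cycling barcodes. In resting DP it was 0.867 (0.815 to 0.923) and 0.499 (0.476 to 0.523). It was higher after selection in both, at 6.66 (5.78 to 7.70) and 4.28 (3.91 to 4.69), and was 3.39 (2.87 to 4.02) in mature autonomy barcodes. Id3 made up 97.1% of the Id UMIs in turnover and 79.2% in autonomy cycling barcodes, where Id1 added most of the rest. UMIs of different genes are not compared as levels here, so the quotient is read only between groups.

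**Figure D3:**
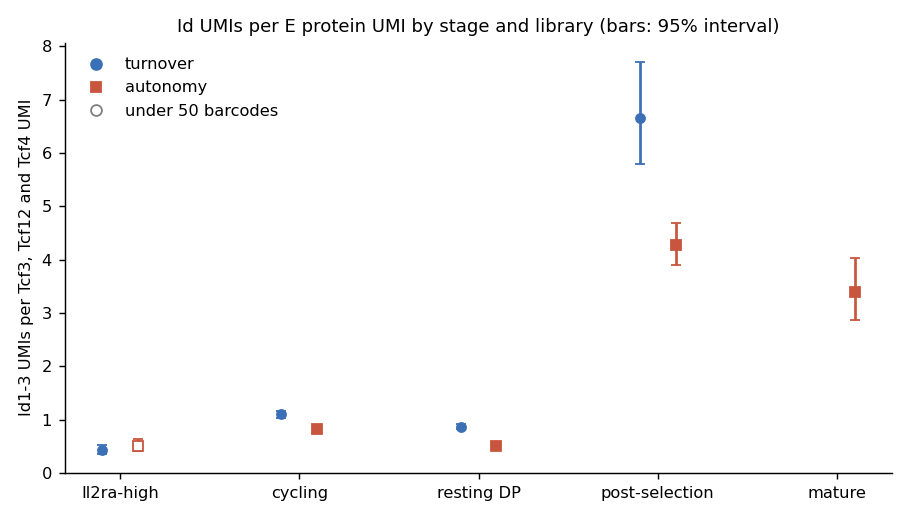
UMIs of Id1, Id2 and Id3 per UMI of Tcf3, Tcf12 and Tcf4 (vertical axis, linear from 0) by stage for turnover (circles) and autonomy (squares), with 95% intervals for counting error; open symbols are groups under 50 barcodes, and the 14 turnover mature barcodes are not drawn. The quotient is highest after selection, at 6.66 and 4.28, and lower in autonomy in cycling, resting DP and post-selection barcodes. In Il2ra-high barcodes it is 0.434 in turnover and 0.510 in autonomy.

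Rearrangement of TRB comes before the pre-T cell receptor signal, so barcodes were also split by whether a productive TRB chain was read. Among autonomy cycling barcodes, 79 had TRB contigs of which none was productive, and 151 had a productive chain. Id1 was at 102.7 CPM (110 UMIs) in the first and 31.3 CPM (87 UMIs) in the second, a ratio of 3.29 (2.46 to 4.41). An Id1 UMI was found in 45 of the 79 and in 29 of the 151. Id3 went the other way, 174.7 and 280.9 CPM, a ratio of 0.622 (0.527 to 0.730). Tcf12 was at 213.0 and 143.7 CPM, a ratio of 1.48 (1.25 to 1.75), and Tcf3 at 197.1 and 204.8 CPM, a ratio of 0.963 (0.818 to 1.13). Id1 was the only 1 of 4 member genes with enough UMIs past 2-fold, beside 0.658% of 4861 genes higher and 1.03% lower, and it ranked 2nd.

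The split was not uniform within cycling barcodes. Where coreceptors were at or above 20 UMIs per 10000, the Id1 ratio was 6.82 (4.01 to 12.1) and the Id3 ratio 0.999 (0.807 to 1.23). Below that, the Id1 ratio was 2.17 (1.48 to 3.16) and the Id3 ratio 0.328 (0.244 to 0.432). Among barcodes with a Y-linked UMI and no Xist UMI the Id1 ratio was 23.6 (9.66 to 69.3) over 13 and 40 barcodes, and with an Xist UMI it was 1.93 (1.37 to 2.71) over 52 and 98. One TRB chain, in 16 cycling barcodes, held 35 of the 87 Id1 UMIs of barcodes with a productive chain. Without it the productive group was at 20.7 CPM, the ratio was 4.96 (3.54 to 7.04), and all cycling autonomy barcodes were at 45.9 CPM. Thinned to 1000 UMIs, when 15 cycling barcodes had an Id1 UMI, the ratio was 1.91 (0.672 to 5.43). With 1 barcode per TRB chain it was 9.99 (5.23 to 21.4), but this reduced only the productive group, as did leaving out the 1 chain. The group without a productive chain was left whole, and 5 of its barcodes held 37.3% of its Id1 UMIs. Turnover had 27 cycling barcodes without a productive chain and 1 Id1 UMI in them, too few for the same comparison. Among productive-TRB cycling barcodes the Id1 ratio of autonomy to turnover was 82.7 (31.1 to 310), from 4 and 87 UMIs.

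In autonomy resting DP the same split gave 22.6 CPM without (44 UMIs, 798 barcodes) and 8.55 CPM with a productive TRB chain (51 UMIs, 2376 barcodes) for Id1, a ratio of 2.64 (1.72 to 4.03). Tcf4 was 1.56 (1.16 to 2.08) and Tcf12 1.18 (1.09 to 1.28) times as high without one, while Id3 (0.985, 0.896 to 1.08) and Tcf3 (0.924, 0.834 to 1.02) had intervals that include 1. No member with enough UMIs passed 2-fold, of 5, beside 0.399% of 7512 genes higher and 0.732% lower. Id1 with 95 UMIs was under the minimum of 100. Turnover resting DP had 0 Id1 UMIs in 264 barcodes without and 11 in 2518 with a productive chain, where 3 counts would be 5.93 CPM in the first. Split by productive TRA in autonomy resting DP, the ratios without over with a chain lay between 0.916 for Tcf4 and 1.20 for Id1, and all 6 intervals included 1.

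**Figure D4:**
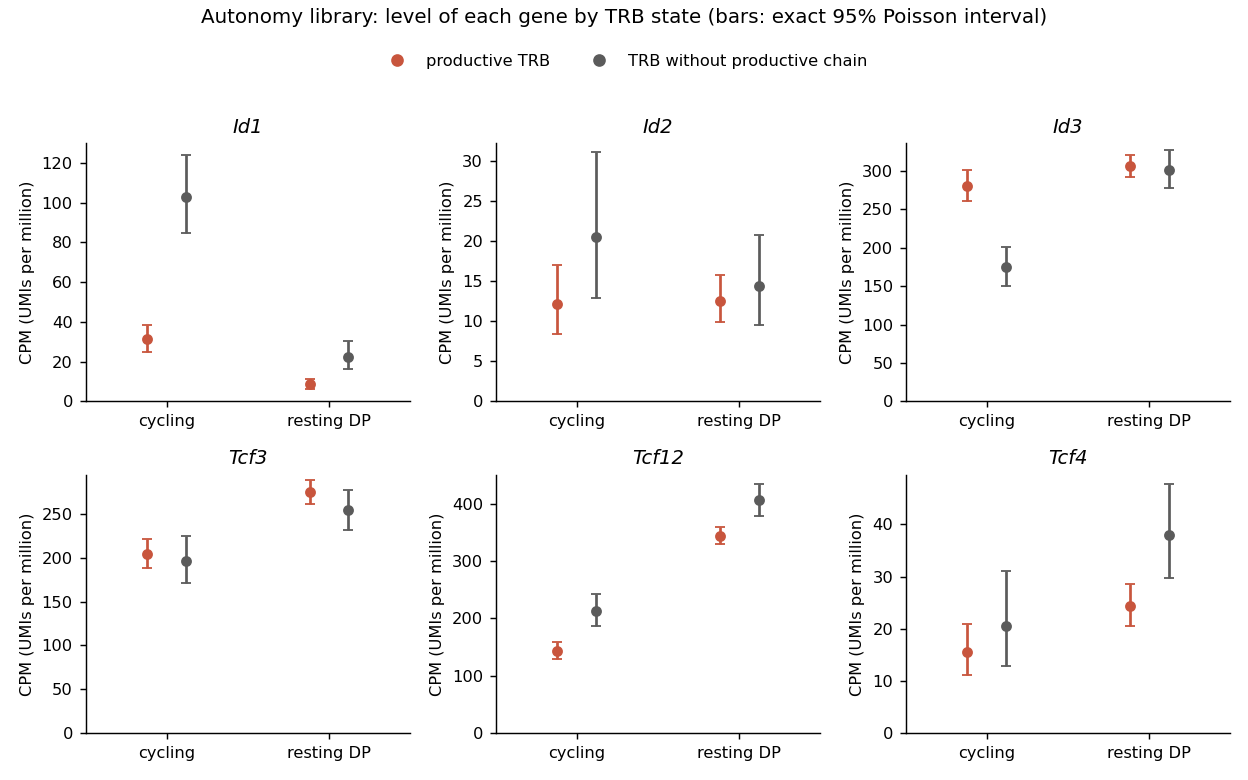
CPM of each gene (vertical axes, linear from 0) in autonomy cycling and resting DP barcodes with a productive TRB chain and with TRB contigs of which none was productive, with exact 95% Poisson intervals. Id1 is higher without a productive chain in both stages (102.7 against 31.3 and 22.6 against 8.55 CPM), Id3 is lower in cycling barcodes (174.7 against 280.9 CPM), and the Tcf3 intervals overlap in both.

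Because most autonomy barcodes shared their TRB chain with others, the genes were also read per chain. In autonomy 31 chains were in 20 or more barcodes, the largest in 191. Tcf3 ranged from 156.0 to 401.9 CPM over these groups, with a median of 274.1, and all 31 lay above the turnover library at 59.2 CPM. Among their resting DP barcodes the range was 157.2 to 422.7 CPM, again with all 31 above the turnover value of 70.3. Id3 ranged from 169.3 to 1148 CPM, and 26 of 31 groups were above the turnover library over all barcodes but 15 of 31 among resting DP barcodes. An Id1 UMI was found in 16 of the 31 groups, with up to 98.7 CPM, and Tcf4 was above the turnover library in 4 groups. In cycling autonomy barcodes Id1 was at 57.0 CPM (44.5 to 72.1) where the chain was in 20 or more barcodes, 9.90 CPM (3.98 to 20.4) where it was in 2 to 19, and 11.8 CPM (5.65 to 21.7) where it was in 1. Of the 70 UMIs behind the first value, 35 came from the 1 chain named above. In resting DP the order was not the same, with 5.93, 10.6 and 12.5 CPM. The groups share 1 library and are not replicates of the condition.

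**Figure D5:**
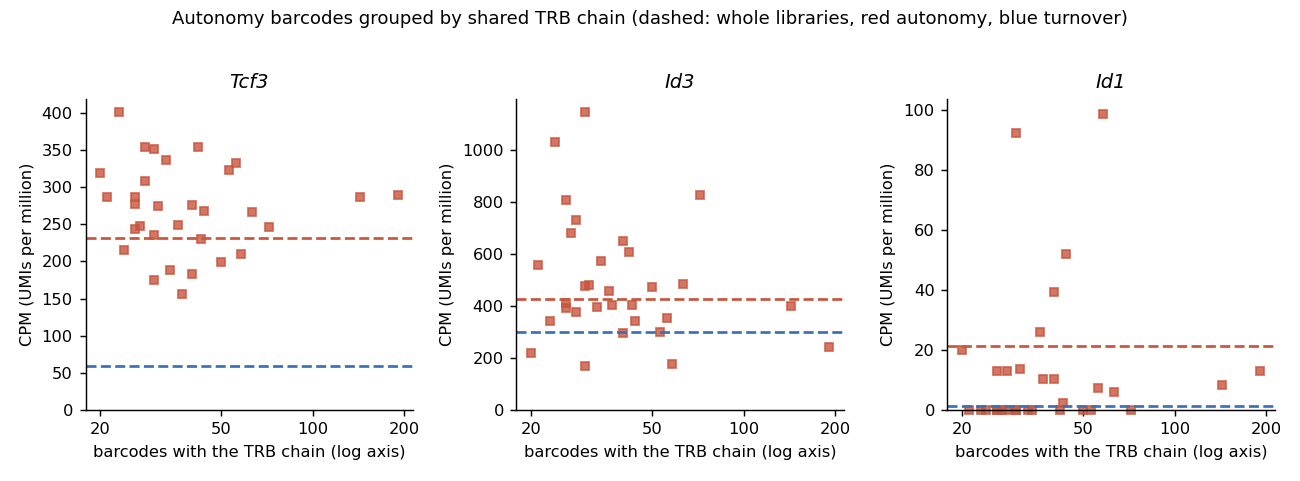
CPM of Tcf3, Id3 and Id1 (vertical axes, linear from 0) in the 31 groups of autonomy barcodes that share a TRB chain, against the number of barcodes in the group (horizontal log axis), with the whole libraries as dashed lines. All 31 groups lie above the turnover line for Tcf3 and 26 for Id3. For Id1 the 16 groups above the line are those with any Id1 UMI, so this count is of detection only.

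Genes that work with or after the members were read from lists chosen by function. Of 19 thymocyte genes linked to E proteins, 16 had enough UMIs over all barcodes, 5 were at least 2-fold higher in autonomy and 1 lower, beside the 13.6% and 2.3% of all genes. Their median log2 ratio was 0.66, against 0.28 over all genes. The JAK-STAT inhibitor Socs3 was at 7.53 and 169.9 CPM, a ratio of 22.6 (19.1 to 26.8). Ptcra, which pairs with TRB before TRA is made and is an E protein target, was at 107.9 and 379.1 CPM, a ratio of 3.51 (3.34 to 3.69). The cytokine signal inhibitor Socs1 had a ratio of 3.25 and the receptor Notch1 2.78. Lower was Cdk6, a G1 kinase, at 0.474 (0.434 to 0.519), but in resting DP its ratio was 1.44 (1.17 to 1.77) and in cycling barcodes 0.650. Rag1 and Rag2, the recombinase genes, had ratios of 1.47 and 1.49 over all barcodes, yet 1.03 and 1.08 in cycling barcodes, 0.908 (0.884 to 0.933) and 1.05 in resting DP, and 0.940 and 0.770 in post-selection barcodes. The resting DP gate requires 1 or more Rag1 or Rag2 UMI, so the resting DP ratios of these genes depend in part on the gate. In cycling barcodes 4 of 15 tested, Socs3, Ptcra, Notch1 and Socs1, were 2-fold higher and none lower, beside 7.39% and 0.791% of all genes, with Ptcra at 101.7 and 337.3 CPM. In post-selection barcodes Notch1 and Socs1 were 2-fold higher, 2 of 10 beside 6.48%, and the list's median log2 ratio was -0.13 against 0.07 over all genes. In resting DP 4 of 14, named as in cycling barcodes, were higher beside 8.88% of all genes, with Ptcra at 84.4 and 521.7 CPM (ratio 6.18, 5.62 to 6.80) and Notch1 at 28.4 and 228.1 CPM (ratio 8.04, 6.85 to 9.49).

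The Ptcra window is shown because Ptcra was higher in autonomy in both stages and holds E-boxes there. It is chr17:46763713-46763962 of GRCm38.p6 on the minus strand, with E-boxes (CANNTG) in capitals.
Ptcra: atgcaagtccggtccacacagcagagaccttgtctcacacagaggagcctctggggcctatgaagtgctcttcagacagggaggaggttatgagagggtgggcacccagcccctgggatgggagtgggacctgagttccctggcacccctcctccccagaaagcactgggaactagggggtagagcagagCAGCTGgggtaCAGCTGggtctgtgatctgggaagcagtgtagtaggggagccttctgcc
It held 2 E-boxes, both CAGCTG, 60 to 55 and 49 to 44 bases before the start. Of 13 listed genes with a window, 8 held an E-box, a share near that of all windows. The windows of Socs3, Socs1 and Notch1 held none. A match is a stretch of letters and not a binding site.

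The list of T cell receptor and ERK response genes holds the Egr factors that act on Id3 and other genes that respond to the same signals. Of its 12 genes, 9 had enough UMIs over all barcodes. At least 2-fold higher in autonomy were 6 and none was lower, beside 13.6% and 2.3% of all genes. The phosphatase genes Dusp2 and Dusp5 were at 4.76 (4.42 to 5.14) and 4.51 (3.86 to 5.28), the Egr corepressor Nab2 at 4.14 (3.51 to 4.90) and the nuclear receptor Nr4a1 at 2.44 (2.20 to 2.71). Egr1 and Egr2, transcription factors that act on Id3, had ratios of 2.17 and 2.11. In post-selection barcodes, where most of their UMIs lay, the ratios of Nab2 (2.42), Nr4a1 (1.25), Egr1 (1.32) and Egr2 (1.22) were lower than over all barcodes. Egr1 was at 1.4 (0.9998 to 1.98) in resting DP. Egr1, Egr2 and Nr4a1 are markers of the post-selection gate, which takes barcodes rich in them out of resting DP. Where their UMIs lie, and their ratios within these stages, depend in part on that gate. Of the list, 3 of 9 genes tested in post-selection and 2 of 3 in cycling barcodes were at least 2-fold higher, beside 6.48% and 7.39% of all genes. None was 2-fold lower in these stages, beside 0.519% and 0.791%. In resting DP, Dusp2 and Dusp5 were the 2 called of 6 tested, beside 8.88% of all genes, with ratios of 3.87 and 2.90. There Id3 itself had the ratio of 0.956 given above.

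Of 23 BMP, TGF-beta and SMAD genes, 12 had enough UMIs, 4 were 2-fold higher and none lower, beside 13.6% and 2.3% of all genes. The receptor Tgfbr2 was at 3.48 (3.1 to 3.92), the ligand Tgfb1 at 3.20 (2.96 to 3.45), the SMAD corepressor Skil at 2.44 and Smad3 at 2.38. In cycling barcodes, where Id1 differed most, Tgfb1 (2.77) and Tgfbr2 (2.16) were 2 of 8 tested past 2-fold, beside 7.39% of all genes. In resting DP 4 of 13 were, beside 8.88%: Tgfb1 (3.31), Smad3 (3.09), Tgfbr2 (2.05) and Smad1 (2.02). Of 24 other helix-loop-helix factors and their partners 9 had enough UMIs, and Mxd4, a MAX partner, at 3.42 and the LIM adaptor Ldb1 at 2.95 were 2-fold higher, 2 of 9 beside 13.6% of all genes. In cycling barcodes these were at 2.05 and 1.54, and in resting DP at 2.23 and 2.65. Of this list, 1 of 8 tested in cycling and 2 of 7 in resting DP were 2-fold higher, beside 7.39% and 8.88% of all genes. In post-selection barcodes 4 of 5 were, beside 6.48%. None was 2-fold lower in these stages, beside 0.791%, 0.958% and 0.519%. All 10 E protein cofactors and degradation genes had enough UMIs over all barcodes, in cycling and in resting DP barcodes. None was 2-fold higher or lower over all barcodes, beside 13.6% and 2.3% of all genes, or in cycling barcodes, beside 7.39% and 0.791%. In resting DP 1 of 10 was higher, the acetyltransferase gene Kat2a at 2.12 (1.54 to 2.97), beside 8.88% of all genes, and none was lower, beside 0.958%. In post-selection barcodes none of 8 tested was higher or lower, beside 6.48% and 0.519%.

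Genes with the most similar pattern were taken by Pearson correlation of log2(CPM + 10) over the 8 groups of library and stage with 50 or more barcodes, among 8997 genes. The 8 groups share 2 libraries, and the values are a description. Id1 was most like H2-T3 (0.977), Wnt5b (0.959) and Nespas (0.947). H2-T3 was at 0 to 0.273 CPM in the 4 turnover groups and at 35.0 CPM in autonomy cycling and 11.9 CPM in autonomy resting DP barcodes. Id3 was most like Cd5 (0.996), Rgs10 (0.996) and Pfn1 (0.990), and Cd5 is itself a marker of the post-selection gate. Id2 was most like Gnl1 (0.961), Cd53 (0.958), also in that gate, and Tmsb10 (0.955). Tcf3 went with Med25 (0.991), Bag6 (0.989) and Heg1 (0.988). Tcf12 went with Cbfa2t2 (0.996), Ppp1r21 (0.991) and Tspan3 (0.986), and Tcf4 with Pus10 (0.978), Tgs1 (0.974) and Kcnq1ot1 (0.967).

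In GRCm38.p6 the protein-coding members lie apart: Id1 at chr2:152736251-152737410, Id3 at chr4:136143822-136145392, Tcf12 at chr9:71844252-72111893, Tcf3 at chr10:80409541-80433976, Id2 at chr12:25093799-25096092, and Tcf4 on chromosome 18. Id1, Id2, Id3 and Tcf3 overlap no other gene of that annotation. Tcf12 spans 2 pseudogenes and Tcf4 a long non-coding RNA gene, and how the counting used strand is not given in the sources used here.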

How the data were processed

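Thymocytes of 1 turnover and 1 autonomy condition were measured with a 5' droplet assay, with 1 expression and 1 V(D)J library each. The deposited tables hold raw counts of UMIs per gene and barcode, and per the submitters' processing notes they were made with Cell Ranger 3.0.2 and mm10, with Seurat 3.1.3.9002 also named. The gene annotation and the cell calling are not given in the sources used here. The deposited V(D)J tables hold contigs with their segments, productive call and UMI count.

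Barcodes with fewer than 1000 UMIs were left out, 147 in turnover and 173 in autonomy, and no doublet caller was run (13 and 10 barcodes had more than 2 productive TRB chains). V(D)J contigs were found for 4173 and 4186 barcodes. A chain was a V segment, a J segment and a CDR3, and contigs of mixed chain type were not counted. Stages used summed markers per 10000 UMIs, in this order: macrophage and granulocyte at 20, dendritic at 40 or B cell at 60 or more (set aside), 1 or more Il2ra UMI with coreceptors under 5, cycle genes at 100, mature genes at 25, post-selection genes at 20, and coreceptors at 20 with 1 or more Rag UMI. These thresholds were set from the marker scores of both libraries and not from a member gene. Within 20% of their threshold lay 67 turnover and 55 autonomy cycling, and 115 and 126 post-selection barcodes. UMIs were summed per library and group and divided by the group total. Levels carry an exact Poisson interval, ratios a conditional exact binomial interval and shares an exact binomial interval at 95%. A gene was called at 2-fold or more, with at least 200 UMIs over all barcodes or 100 in a stage, and groups needed 50 barcodes. Thinning drew 1000 UMIs per barcode without replacement. The calculations were tested on simulated data.

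The member genes and gene lists were chosen with earlier results of these data known. Named besides the members were, per list, up to 4 genes past 2-fold by size of the ratio over all barcodes, in cycling and in resting DP barcodes, and the 3 genes most similar to each member; Egr1, Egr2, Rag1 and Rag2 were named as genes of those lists to say what they do. Sequences and positions came from RefSeq tables of GRCm38.p6, and 25166 of the 31053 symbols matched. TMM factors came from edgeR 4.0.16 in R 4.3.3, clusters from scanpy 1.11.5, and the rest from scipy 1.17.1 and numpy 2.4.6 in Python 3.11.15. Alternatives were other barcode filters, TMM factors, thinning, barcodes of 1 sex and 1 barcode per TRB chain. Further ones were thresholds 1.5 times as strict, stages from clusters and contigs with 2 or more UMIs. Chosen after the data were seen were at most 2 productive TRB chains and TMM factors within stages. For 1 barcode per TRB chain, only barcodes with a productive chain were reduced, and all others stayed.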

Additional observations from a re-analysis of the deposited data

How the results depend on the processing

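Of 48 values over all barcodes under an alternative, 30 stayed inside the main interval, 18 moved out of it and 0 changed direction. Of 257 within stages, these were 207, 49 and 1, the last being Id3 in cycling barcodes thinned to 1000 UMIs, at 0.869. Besides the ratios, the 257 hold Id UMIs per E protein UMI and shares of barcodes with a UMI, both from turnover only. Over all barcodes, TMM factors gave 1.51 for Id2, 1.17 for Id3, 3.19 for Tcf3, 1.31 for Tcf12 and 0.589 for Tcf4. Thinning to 1000 UMIs gave 10.5 for Id1, 1.06 for Id3, 3.61 for Tcf3 and 1.42 for Tcf12. One barcode per TRB chain gave 1.34 for Id3, 3.48 for Tcf3, 1.52 for Tcf12 and 0.830 for Tcf4. Barcodes with a Y-linked and no Xist UMI gave 2.31 for Id2 and 1.65 for Id3, barcodes with 2000 or more UMIs 1.54 for Id3 and 1.70 for Tcf12, and leaving out other-lineage and mature barcodes 1.68 for Tcf12. For Tcf3, TMM factors gave 3.30 and thinning 3.04 in cycling barcodes, and thinning 3.21 in post-selection barcodes. The Id1 ratio without over with a productive TRB chain in cycling barcodes was 1.91 thinned. It was 9.99 with 1 barcode per chain, which reduced only the productive side. For Id3 in post-selection over resting DP, stages from clusters gave 3.48 in turnover and 4.57 in autonomy, and in autonomy the Y-linked barcodes gave 6.20, 1 barcode per chain 5.62 and stricter thresholds 5.59. The count of 1429 genes 2-fold apart was 647 with a minimum of 1000 UMIs, 3374 with 1 UMI in each library and 537 after thinning, when fewer genes were tested in the first and last. The causes of the other moves were not tested. Depth limits Id1, Id2 and Tcf4 most, with 22 to 658 turnover UMIs. No paired analysis was possible because each condition has 1 expression library.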

Other observations

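Cycling barcodes were also split by whether the G2/M or the S phase genes gave more UMIs. Id2 was lower on the S phase side in both libraries, at 2.63 against 6.89 CPM in turnover (ratio 0.381, 0.165 to 0.781) and 8.57 against 18.7 CPM in autonomy (ratio 0.459, 0.232 to 0.858), from 61 and 56 UMIs in all. Id3 was higher on the S phase side in autonomy, at 296.7 against 218.0 CPM (ratio 1.36, 1.2 to 1.55), and nearly level in turnover, at 212.2 against 196.9 CPM (ratio 1.08, 0.985 to 1.18). Tcf3 had ratios of 1.007 and 1.004 and Id1 1.07 in autonomy, each with an interval that includes 1. The G2/M side had 442 turnover and 145 autonomy barcodes and the S phase side 192 and 95, and the difference between the libraries was not tested.

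The barcodes set aside for other-lineage markers in autonomy had Tcf4 at 90.4 CPM (60.5 to 129.8), of which 12 of 29 UMIs came from 1 barcode, and Id1 at 9.35 CPM from 3 UMIs. They also had 1576 CPM of Cd3e, a T cell gene.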
